A study of Mus musculus with 3 samples.

Results

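The vessel growth genes described here are 10 members of 2 linked signalling systems: the VEGF ligand genes Vegfa, Vegfb and Vegfc with their receptor genes Flt1, Kdr and Flt4, and the angiopoietin ligand genes Angpt1 and Angpt2 with the receptor genes Tek and Tie1. They were chosen by name, with earlier results of these data known. A peak of Foxf2 binding was given to a member when the transcription start site (TSS) of a protein-coding gene nearest to the peak centre was that of the member (GENCODE M21 basic transcripts, mm10). By this rule 41 of 25704 peaks belonged to the members, and 6 of the 10 members had at least 1 peak. For comparison, 37.4% of all 21851 protein-coding genes had at least 1 peak, a share not matched for the room around a gene.

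The peaks came from tongues of mouse embryos at E12.5 that carried a 3xFLAG epitope tag on both copies of the endogenous Foxf2 gene, placed by CRISPR genome editing. Chromatin was precipitated with an anti-FLAG antibody in 2 libraries, and 1 library of unprecipitated chromatin (input) from the same genotype served as the caller's control. All 3 samples carried the tag, so a FLAG precipitation of untagged tissue was not analysed here, and the labels give 75 tongues for each sample without saying whether they were pooled per library. The deposited values are a single peak list in which each peak has a position, a score and a focus ratio (a caller's measure of how sharply reads gather at the peak) for the series as a whole. No value belongs to a single library, so replicate error could not be computed, the depth is unknown, and no test was run: each value of the members is given beside the same value over all peaks or all genes. The tissue is a mixture of cell types, and neither the cells in which a site was bound nor the level of any RNA was measured.

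Foxf2 is a forkhead transcription factor of embryonic mesenchyme and of pericytes, the cells that wrap small vessels. VEGF ligands act on receptor tyrosine kinases of the endothelium: Vegfa binds Kdr, the main driver of vessel sprouting, and Flt1, which holds ligand back from Kdr. Vegfb also binds Flt1, and Vegfc binds Flt4 on lymphatic endothelium. Angpt1, made by cells around the vessel, activates the endothelial receptor Tek (Tie2) and steadies vessels, Angpt2 is made largely by endothelium and often counters it, and Tie1 modulates Tek without a classical ligand of its own.

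Sequence at the peaks is shown first, since forkhead factors recognise a short core. The core searched for, 7 bases long, was the strict form GTAAACA, the form ATAAACA that starts with A, the form GTAAATA that ends in TA, or the form ATAAATA with both changes, on either strand within the 200 bp around a peak centre. The lines below give the core nearest to the centre, in capitals, with 10 bases on each side, read 5′ to 3′ on the strand that carries the core (mm10). They cover the highest-scored peak of each of the 6 genes, the other Angpt1 peaks in the highest decile of scores that hold a core, and the peaks nearest to the Angpt1 and Angpt2 TSS.
Angpt1, score 77.6, chr15:42621594-42621620, minus strand: gttttgttaaGTAAACAtcctccacga
Angpt1, score 60.4, chr15:42660281-42660307, minus strand: tagcataacaGTAAATAtttctcctaa
Angpt1, score 48.0, chr15:42523715-42523741, minus strand: ttttgtccttGTAAACActgcatgccc
Angpt1, score 41.2, chr15:42476344-42476370, plus strand: tttccatcccATAAACAagcacttctg
Angpt1, score 15.2, chr15:42676062-42676088, plus strand: ggagcaaaagGTAAACAcaaatgcccc
Vegfc, score 77.1, chr8:54042766-54042792, minus strand: gcactgtgctATAAACAcactcctgtt
Vegfa, score 33.5, chr17:46063776-46063802, minus strand: agatgtatacATAAACAcatggatgag
Angpt2, score 27.2, chr8:18738147-18738173, minus strand: cgtatattttATAAACAgctatgaacc
Angpt2, score 22.8, chr8:18739460-18739486, minus strand: ctctgctaagATAAACAgtcaccaaac
Flt1, score 20.6, chr5:147753245-147753271, plus strand: gcaggaaaagATAAATAacatctgagg
Kdr, score 22.9, chr5:75835954-75835980, minus strand: ataaagcaaaGTAAATAaatcaacttc
The 11 lines include all 4 forms of the core. Outside the core the flanking letters differ from line to line, and the strict form GTAAACA is present in both a high-scored and a low-scored Angpt1 peak.

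Of the 41 member peaks, 32 held at least 1 core, 78.0% (exact Clopper-Pearson 95% interval 62.39 to 89.44, which covers the counting of peaks only). Over all peaks the share was 72.5%, inside that interval. In windows of the same width 2000 bp to either side of the member peaks, 10 of 82 held a core, 12.2%, against 18.3% beside all peaks. The strict form GTAAACA was present in 13 of 41 member peaks (31.7%, interval 18.08 to 48.09) against 27.4% of all peaks. Of the 41, 19 held 1 core, 10 held 2 and 3 held more. Of the 48 cores in the member windows, 27 lay within 20 bp of the centre, 56.2%, and the share over all peaks was 58.0%.

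The ligand genes held 35 of the 41 peaks and the receptor genes 6. Among the 5 ligand genes 4 had a peak: Angpt1 had 15, Vegfc 11, Vegfa 5, Angpt2 4 and Vegfb none. Among the 5 receptor genes Flt1 had 4 and Kdr 2, and Flt4, Tek and Tie1 had none. Over all 21851 protein-coding genes 37.4% had at least 1 peak and the median was 0. By number of peaks, Angpt1 stood at rank 171 of these genes and Vegfc at rank 333.

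**Figure D1:**
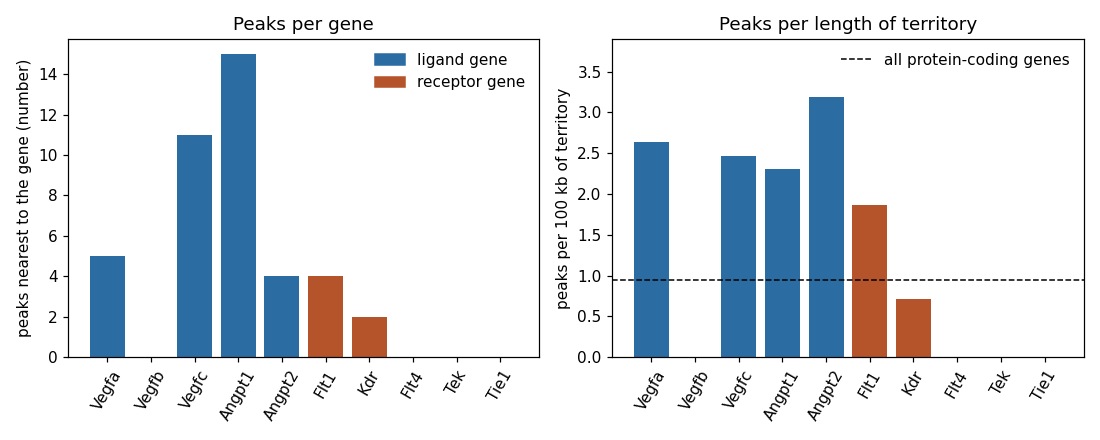
Number of peaks nearest to each gene (left) and peaks per 100 kb of territory, the bases nearer to the gene's TSS than to any other (right), for ligand genes in blue and receptor genes in brown. Angpt1 and Vegfc have the most peaks, Angpt2 has the most per 100 kb (3.19), and Kdr alone of the genes with a peak lies below the value over all protein-coding genes (dashed, 0.943).

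Counts of peaks rise with the room around a gene, so each count was set beside the gene's territory, the stretch of bases nearer to its TSS than to that of any other protein-coding gene. Angpt2 had 3.19 peaks per 100 kb of its 125 kb, Vegfa 2.64 in 189 kb, Vegfc 2.47 in 446 kb, Angpt1 2.31 in 651 kb and Flt1 1.86 in 215 kb. Kdr had 0.708 in 283 kb, below the value of 0.943 over all genes. The 5 ligand genes together had 2.47 peaks per 100 kb and the 5 receptor genes 0.831. Genes in the decile with the widest territories, where Angpt1, Vegfc and Kdr lie, had a median of 4 peaks, and 14 marked the 90th percentile of that group. Angpt1 with 15 was above that mark, Vegfc with 11 was between, and Kdr with 2 was under the median. Kdr lies at the lower edge of that decile, which starts at 279120 bp. The median was 2 in the next lower decile, that of Vegfa and Flt1. At least 1 peak was found for 81.6% of the genes in the decile with the widest territories. The share was 72.4% in the decile of Vegfa and Flt1 and 57.4% in that of Angpt2. Having a peak was therefore the common outcome for genes with as much room as these 6.

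The 4 members with no peak differ widely in territory. Tek has 139 kb, more than Angpt2 with its 4 peaks, and 42.6% of genes in its decile of territory lengths had no peak. It lies at the upper edge of that decile, which ends at 141664 bp. In the next wider decile 27.6% of genes had none. Flt4 has 49.8 kb (65.5% of such genes had none), Tie1 34.9 kb (79.2%) and Vegfb 5.9 kb (91.8%). The absence of a peak at Flt4, Tie1 and Vegfb is therefore the common outcome for genes with as little room. The peak closest to the Tek TSS lay 222 kb away (score 10.2), that for Flt4 220 kb away (27.6), that for Tie1 80.6 kb away (17.3) and that for Vegfb 45.4 kb away (10.3), and each of these was nearer to another gene. No peak centre lay inside the body of any of the 4.

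The forkhead core itself is frequent throughout these territories. Tek's territory held 179 cores and no peak, while Angpt2's held 112 cores and 4 peaks and Vegfa's 122 cores and 5 peaks. Expressed as cores per peak, Vegfa had 24.4, Angpt2 28, Flt1 63.5, Angpt1 67.1, Vegfc 70.9 and Kdr 157, and over the genome there were 137.

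Peak scores of the members ran from 10.2 to 77.6 with a median of 17.4, against a median of 16.2 over all peaks. The interval of the members' median, 13.5 to 22.5, includes 16.2. The score is the authors' own, its scale is not given in the sources used here, and it is used only to rank peaks within the list. In the highest decile of scores (38.6 and above) stood 6 member peaks, 14.6%, against 10.1% of all peaks. Of these 6, 5 were nearest to Angpt1 and 1 to Vegfc. Without Angpt1 the median score of the other 26 peaks was 16.2 and 3.85% were in the highest decile. The focus ratio of the member peaks ran from 0.644 to 0.933, with a median of 0.79 (0.783 over all peaks). The sharpest of the 41 was the highest-scored Vegfc peak.

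**Figure D2:**
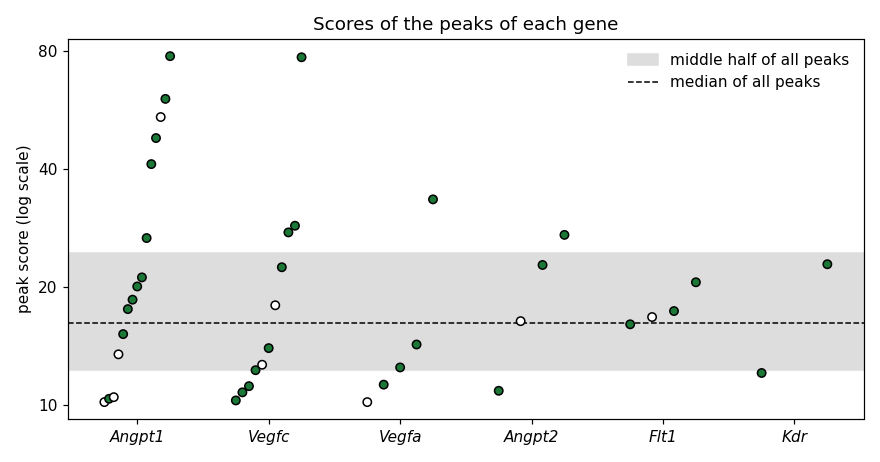
Score of every peak by gene, on a log axis, ordered within each gene by score. Filled points hold a forkhead core within the central 200 bp, open points do not, the dashed line is the median of all peaks (16.2) and the grey band their interquartile range (12.3 to 24.5). Angpt1 has 5 points above 38.6, Vegfc 1, and the other genes none.

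Angpt1, on chromosome 15 from 42424723 to 42676977 (minus strand), combined the most peaks with the highest scores. Its 15 scores ran from 10.2 to 77.6 with a median of 20.1, and 11 of the 15 peaks held a core. Of these peaks 11 lay in the gene's introns and 4 upstream of its TSS, at 8.62, 23.1, 37.1 and 38.0 kb. Intron 1, which spans 153 kb of the 252 kb gene, held 9 of the 11 (5.9 per 100 kb), introns 2 and 5 held 1 each, and the other 5 introns held none. The highest-scored peak of all members (77.6, rank 384 of the list, chr15:42621484-42621696) lay in intron 1, 55.4 kb downstream of the TSS, with a neighbour of score 26.7 at a distance of 2.56 kb. A peak of score 60.4 lay in the same intron 16.7 kb downstream of the TSS (chr15:42660196-42660408). A peak of score 48.0 (chr15:42523620-42523832) had its centre in intron 1, 67 bp from exon 2, and one of score 41.2 (chr15:42476227-42476439) had its centre in intron 5, 45 bp from exon 5, so that their windows reached into coding sequence.

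The window of the highest-scored Angpt1 peak, shown on the plus strand with its 2 cores in capitals, carried both on the minus strand, 30 bases apart.
Angpt1, score 77.6, chr15:42621490-42621689, plus strand: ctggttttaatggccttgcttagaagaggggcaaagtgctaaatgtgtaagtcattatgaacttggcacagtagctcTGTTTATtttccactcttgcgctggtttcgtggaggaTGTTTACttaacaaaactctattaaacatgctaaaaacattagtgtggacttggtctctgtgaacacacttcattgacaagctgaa
The third of the Angpt1 peaks by score (54.3, 37.1 kb upstream) is shown beside it because its window held none of the 4 forms. It lay 0.878 kb from a weaker peak (17.6) that held GTAAACA.
Angpt1, score 54.3, chr15:42713956-42714155, plus strand: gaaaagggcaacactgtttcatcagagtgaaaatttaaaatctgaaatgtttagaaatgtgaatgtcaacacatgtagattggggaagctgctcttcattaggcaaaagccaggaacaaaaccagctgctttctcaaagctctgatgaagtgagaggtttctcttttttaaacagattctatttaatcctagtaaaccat
High scores within this gene thus occurred both with and without one of the 4 forms in the central 200 bp.

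The Angpt1 peak nearest to the TSS (15.2, chr15:42675971-42676183) lay 0.9 kb downstream of it, in intron 1, 88 bp from the end of exon 1, and its core GTAAACA was 2 bp from the peak centre. It was also 0.164 kb from the TSS of Gm17473, an antisense RNA gene on the plus strand (chromosome 15, 42676241 to 42704616) that starts inside exon 1 of Angpt1. When genes of every type could claim a peak, Gm17473 was nearest to 8 of the intronic Angpt1 peaks, by a margin under the length of exon 1, Gm49453, a pseudogene past the 3′ end of Angpt1, was nearest to 3, and the count of Angpt1 was 4 in place of 15. The position of these peaks inside the Angpt1 introns does not depend on that choice.

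Vegfc, on chromosome 8 from 54077606 to 54187096 (plus strand), had its 11 peaks spread over both sides: 6 upstream, 2 in intron 1 and 3 past the 3′ end. Scores ran from 10.3 to 77.1 with a median of 14.0. The highest (77.1, rank 394, focus ratio 0.933, chr8:54042669-54042881) stood 34.8 kb upstream of the TSS and far above the next Vegfc peaks, which scored 28.7 (intron 1, 23.4 kb downstream) and 27.6 (206 kb downstream, 96.9 kb past the gene). Its window is shown because the 2 cores, in capitals, face each other on opposite strands with 6 bases between them, close to the centre.
Vegfc, score 77.1, chr8:54042675-54042874, plus strand: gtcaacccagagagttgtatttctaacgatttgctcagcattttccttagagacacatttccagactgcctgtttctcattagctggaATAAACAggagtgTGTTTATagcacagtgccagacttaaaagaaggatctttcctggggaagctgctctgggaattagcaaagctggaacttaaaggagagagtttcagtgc
Cores were present in 9 of the 11 Vegfc windows. No Vegfc peak lay within 10 kb of the TSS, and the nearest was 11.9 kb upstream (score 11.2).

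Vegfa, on chromosome 17 from 46016993 to 46032369 (minus strand), had 5 peaks, all outside its 15.4 kb body. They were 23.5 and 31.4 kb upstream (scores 11.3 and 33.5) and 60.1, 100 and 130 kb past the 3′ end (scores from 10.2 to 14.3). The peak 31.4 kb upstream (chr17:46063709-46063921) was the only one above the median of the list, and 4 of the 5 held a core. Of these 5, 4 were nearer to the TSS of a long intergenic noncoding RNA than to that of Vegfa: the count was 1 when genes of every type could claim a peak.

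Angpt2, on chromosome 8 from 18690263 to 18741562 (minus strand), lies inside the body of Mcph1, a gene of the DNA damage response, and all 4 of its peaks did too. A pair stood in Angpt2 intron 1, 2.08 kb (score 22.8) and 3.4 kb (27.2) downstream of the TSS and 1.32 kb from each other, with 2 and 3 cores. The others were 48.4 kb upstream (10.9) and 69.9 kb downstream (16.4), and 3 of the 4 held a core. The window of the higher-scored peak of the pair is shown with its 3 cores, all on the minus strand, in capitals.
Angpt2, score 27.2, chr8:18738062-18738261, plus strand: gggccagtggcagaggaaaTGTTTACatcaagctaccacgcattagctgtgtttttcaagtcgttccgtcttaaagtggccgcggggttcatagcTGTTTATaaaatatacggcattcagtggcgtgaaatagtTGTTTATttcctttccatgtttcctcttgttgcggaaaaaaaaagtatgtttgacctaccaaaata
This pair and the Angpt1 peaks at 0.9 and 8.62 kb were the 4 member peaks less than 10 kb from their TSS, 9.76% of the 41, against 20.9% of all peaks.

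Flt1, on chromosome 5 from 147561604 to 147726011 (minus strand), had 4 peaks with scores in a narrow range from 16.1 to 20.6. There were 2 upstream, at 27.3 kb (20.6) and 36.1 kb (17.4), and 2 in the gene, in intron 11 (16.1) and intron 13 (16.8). Of the 4, 3 held a core. The upstream peak of score 20.6 carried 3, all on the plus strand and each of a different form.
Flt1, score 20.6, chr5:147753189-147753388, plus strand: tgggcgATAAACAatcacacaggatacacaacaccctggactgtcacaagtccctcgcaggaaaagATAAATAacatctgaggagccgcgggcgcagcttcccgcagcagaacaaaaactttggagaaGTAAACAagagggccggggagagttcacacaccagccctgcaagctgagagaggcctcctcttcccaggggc
Both upstream peaks were nearer to the TSS of the noncoding gene Gm43156 (7.77 and 16.6 kb) than to that of Flt1.

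Kdr, on chromosome 5 from 75932827 to 75978458 (minus strand), had no peak in its body, and none of its assigned peaks was upstream. Its 2 peaks lay past its 3′ end, 96.9 kb (score 22.9) and 118 kb (12.1) from the gene, on the side of Kit, a receptor tyrosine kinase gene whose TSS was 261 and 240 kb away. The peak closest to the Kdr TSS was another, 87.5 kb upstream with a score of 29.6 (chr5:76065812-76066024), which was nearer to the TSS of Srd5a3 and so was not counted for Kdr. The peak of score 22.9 (chr5:75835864-75836076) lay in the promoter of the noncoding gene Gm19590, 0.325 kb from its TSS. It held 2 cores on the same strand with 7 bases between them.
Kdr, score 22.9, chr5:75835870-75836069, plus strand: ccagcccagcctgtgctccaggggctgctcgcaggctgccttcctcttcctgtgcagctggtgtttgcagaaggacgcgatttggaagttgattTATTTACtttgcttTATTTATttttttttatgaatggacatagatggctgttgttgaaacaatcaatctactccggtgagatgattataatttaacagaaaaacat
With genes of every type as candidates, both peaks went to Gm19590 and Kdr had none.

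**Figure D3:**
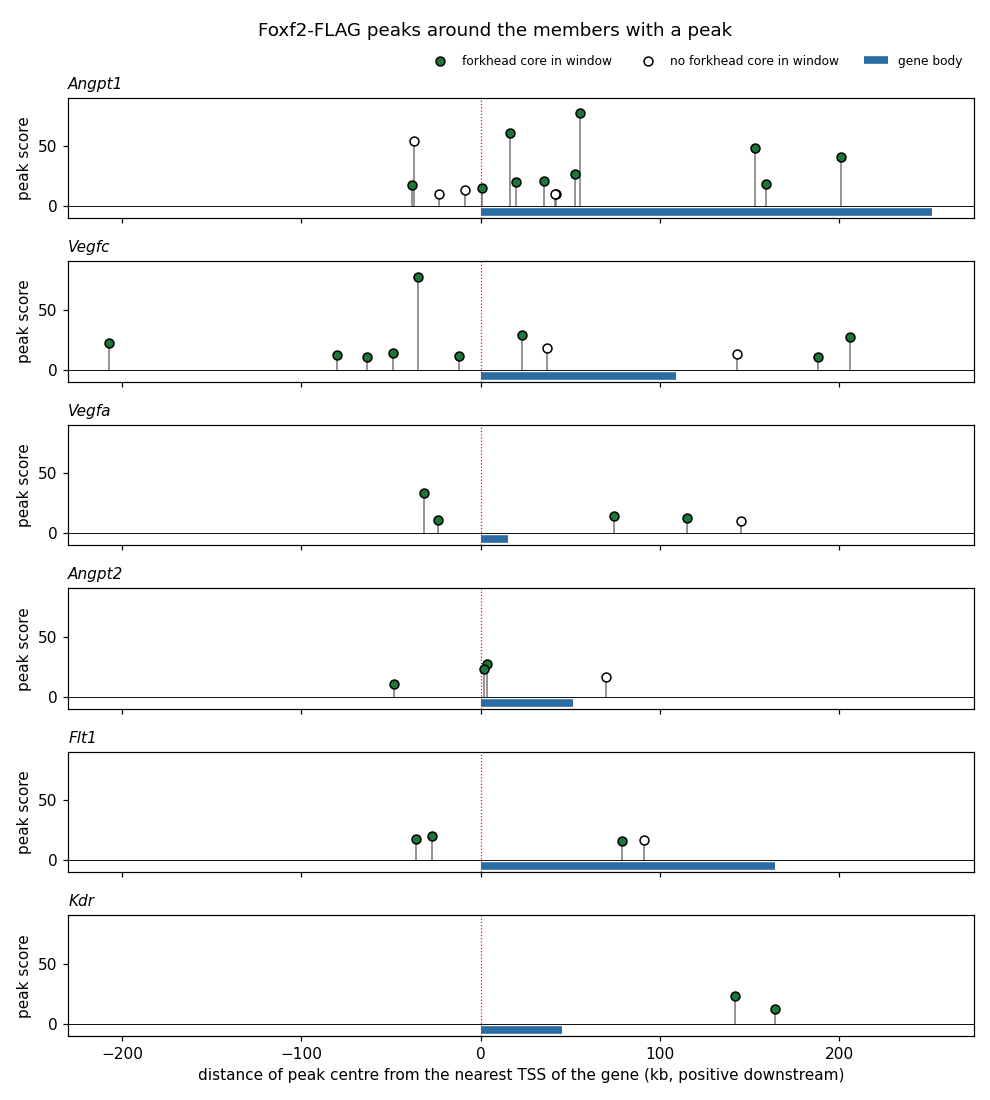
Peak score against the distance of the peak centre from the nearest TSS of the gene (kb, negative upstream), for the 6 genes with a peak. Filled points hold a forkhead core, the blue bar is the gene body and the dotted line the TSS. The Angpt1 peaks lie mainly inside the gene, those of Vegfc on both sides of it, and those of Vegfa and Kdr outside.

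Promoters of the members held no peak: 0 of 41 centres lay from 1000 bp upstream to 100 bp downstream of a member TSS. The rule of 3 (3 divided by 41) gives an approximate upper limit of 7.32% for that share. It is not an exact interval like those of the motifs. It concerns member promoters only and is not to be set against the share for promoters of any gene. Promoters of any annotated gene held 2 of the 41, 4.88%, both at noncoding genes described above, against 8.52% of all peaks. By class, 20 of the 41 lay in introns (48.8%, against 46.1% of all peaks), 18 between genes (43.9%, against 41.8%) 1 in an exon of a noncoding RNA (2.44%, against 3.0% in noncoding or untranslated exons) and none in a coding exon (0.572% of all peaks). The median distance to the TSS was 48.4 kb (51.3 kb over all peaks). RefSeq promoter windows (250 bases before to 50 after the start, GRCm38.p6) were matched for 8 of the 10 members, all but Angpt1 and Angpt2. None of their 9 windows held a core, against 15.0% of 32851 promoter windows of all genes. With only 9 windows, a difference from that share cannot be read from these counts.

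**Figure D4:**
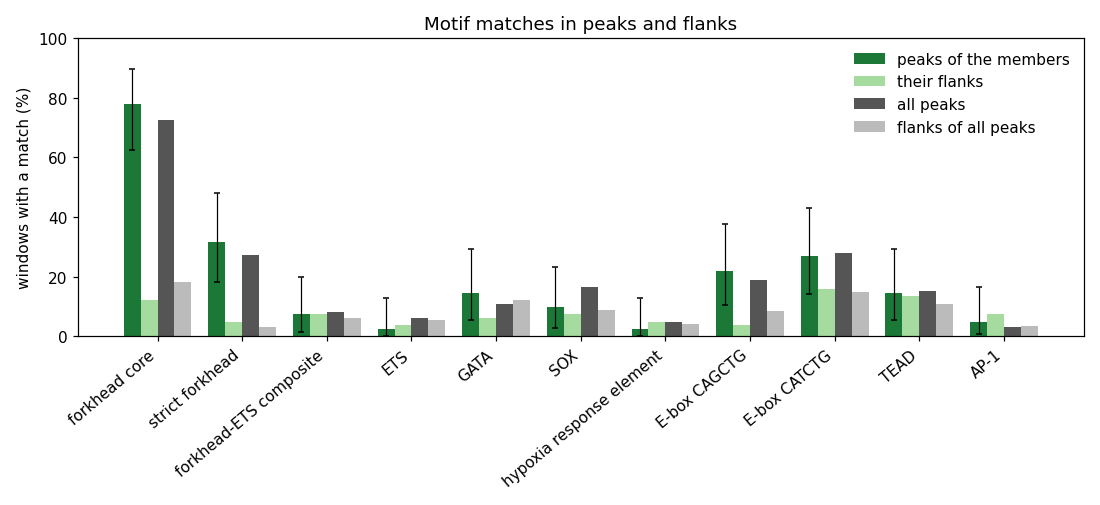
Share of windows with a match, in percent, for 11 motifs in the 41 member peaks (with exact 95% intervals), their 82 flanks, all peaks and the flanks of all peaks. The forkhead core stands at 78.0% of member peaks and 12.2% of their flanks, and the interval of each motif in the member peaks includes the share over all peaks.

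Recognition sequences of other factors were counted in the same windows, on both strands. These included ETS factors, which mark endothelial enhancers (CGGAAGT or AGGAAGT), a forkhead and ETS composite (ACAGGAA, which can overlap AGGAAGT), and the hypoxia response element through which Hif factors switch on Vegfa (TACGTG or GACGTG). The ETS form was in 1 of 41 member peaks (2.44%, against 6.2% of all peaks), the composite in 3 (7.32%, against 8.07%) and the hypoxia element in 1 (2.44%, against 4.94%). The E-box CAGCTG was in 9 (22.0%, against 18.7% of all peaks) and the E-box CATCTG in 11 (26.8%, against 28.0%). GATA sites (AGATAA) were in 6 (14.6%, against 10.7%), SOX sites (AACAAAG or AACAATG) in 4 (9.76%, against 16.4%), TEAD sites (GGAATG) in 6 (14.6%, against 15.1%) and AP-1 sites (TGACTCA or TGAGTCA) in 2 (4.88%, against 3.15%). In the 82 flanks of the member peaks the ETS form was in 3.66%, the composite in 7.32%, the hypoxia element in 4.88%, CAGCTG in 3.66%, CATCTG in 15.9%, GATA sites in 6.1%, SOX sites in 7.32%, TEAD sites in 13.4% and AP-1 sites in 7.32%. The ETS form, the hypoxia element and AP-1 sites had lower shares in the member peaks than in their flanks, but on 1, 1 and 2 peaks. Their intervals in the member peaks (0.06 to 12.86, 0.06 to 12.86 and 0.6 to 16.53) include the flank shares, so no difference can be read from them. The composite had the same share in both. The E-boxes, GATA, SOX and TEAD sites had higher shares in the member peaks than in their flanks. Of these, only CAGCTG had an interval (10.56 to 37.61) that leaves out its flank share, which rests on 3 flanks. Over all peaks CAGCTG was in 18.7%, against 8.41% of their flanks, so that direction is not particular to the members. For each of the 11 motifs the share over all peaks lay inside the interval of the member peaks, so no difference from the rest of the list was detectable with 41 peaks. GC content of the member windows had a median of 40.5% (43.5% over all peaks), and repeat-masked bases made up a mean of 15.5% (13.1%).

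Other genes of the pathways were read from lists, beside the same background of 37.4% of genes with a peak. Of 9 further ligands, co-receptors and processing factors, 8 had a peak, with 65 in all: the VEGF co-receptor genes Nrp2 and Nrp1 had 22 and 19, and Ccbe1, needed to process Vegfc, had 10 (4.38 per 100 kb). Of 9 hypoxia regulators 4 had a peak: the prolyl hydroxylase gene Egln3 had 19, and Hif1a and Epas1, which encode the Hif alpha subunits that switch on Vegfa, had 6 and 2. Among 20 genes of endothelial identity 12 had a peak, led by the ETS factor gene Ets1 with 22, the endothelial cadherin gene Cdh5 with 18 and the ETS factor gene Erg with 14. The highest-scored Erg peak (158.1, 25.3 kb downstream) was above every member peak. Of 11 genes of the Notch and BMP9 branch 6 had a peak: the Notch ligand gene Jag1 had 17, and Notch1, Aplnr and the BMP9 receptor gene Acvrl1 had 3 each, the latter with a peak 0.034 kb from its TSS (40.7). Of 10 signal transducers 7 had a peak, led by Foxo1 with 9, Grb14 with 7 and Pik3r1 with 6. Per 100 kb of territory these lists had 2.62, 2.08, 2.11, 2.52 and 1.25 peaks, and the 10 members 1.92. The counts of genes with a peak were not matched for territory. Genes named here such as Nrp2, Nrp1, Egln3, Ets1, Cdh5 and Jag1 (676 to 972 kb) are in the decile with the widest territories. In that decile 81.6% of genes had a peak.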

How the data were processed

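Anti-FLAG ChIP-seq of E12.5 tongues was analysed from 1 deposited table of 25707 peaks, each 212 bp wide (end minus start). Per the submitters' processing notes, reads were aligned to mm10 with Bowtie2 (2.4.1) and handled with SAMtools (1.7.1), and the series' design text has peaks called with HOMER against the input. Caller settings, depth and any pooling of libraries: not given in the sources used here. Scores, and focus ratios (a fraction), are as deposited by the authors. The last column is headed focus ratio or region size, and was read as the former since all its values lie below 1.

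Of these, 3 peaks outside the placed chromosomes were dropped. The TSS set was that of protein-coding basic transcripts (GENCODE M21, GRCm38, the build of mm10), with ties to the lower coordinate, and sequence came from the RefSeq genome of that build. Classes were taken at the peak centre in the order promoter, coding exon, other exon, intron, intergenic. Territories included assembly gaps. Intron numbers are those of the longest protein-coding transcript. Members and lists were chosen with earlier results of these data known. Every member was named, the 3 genes with the most peaks (with ties) in each other list, and single peaks that were a member's highest-scored, nearest to its TSS or in its promoter. Other single peaks and the printed windows were chosen after their values were seen. Assignment, territory and motif steps were tested on simulated data. Software: samtools 1.23.1 and pysam 0.24.0 for sequence, pandas 2.3.3 and numpy 2.4.6 for tables, scipy 1.17.1 for intervals and matplotlib 3.10.9 for plots, under Python 3.11.15.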

Additional observations from a re-analysis of the deposited data

How the results depend on the processing

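The number of members with a peak stayed at 5 or 6 under every alternative except peaks within 10 kb of the TSS, which left 2. The number of peaks, 41, was 23 with scores at or above the list median, 20 when all gene types competed for a peak, 17 counting peak centres inside a member's gene body, and 4 within 10 kb. The median score was 22.9 among peaks at or above the list median. It was 15.05 when all gene types competed, below the 16.2 of all peaks, where the main value of 17.4 was above it. Peaks per 100 kb of territory were 1.08 with those higher scores and 0.187 within 10 kb. Both divide fewer peaks by the same full territory. The second value is therefore not a density near the TSS, and neither has a like value over all genes here. GTAAACA alone was in 31.7% of the peaks. The share with a core was 68.3% in windows of 100 bp and 82.9% in windows of 400 bp. With all gene types competing it was 70.0%, below the 72.5% of all peaks, where the main value of 78.0% was above it. No member promoter held a peak under any alternative run. Most of the peaks therefore rest on assignment by the nearest TSS over long distances, and which gene a distal peak acts on was not measured. No paired analysis was possible because the deposited list has no column for a single library. Depth is unknown, so a gene without a peak has none called at this depth.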
